A study of Homo sapiens with 6 samples.

Results

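The formin genes DIAPH1, DIAPH2, DIAPH3, DAAM1, FMNL1, FMNL2, FMNL3, FHOD1, FHOD3 and INF2 were followed in MDA-MB-231 cells exposed to Nitidine Chloride (NCD). These 10 genes were matched by symbol among the 63241 Ensembl genes of the count tables, and all 10 passed the filter on low counts. The family was chosen by the fold changes of this same contrast, with the near loss of DIAPH2 counts known, and by setting those changes against gene span. The members' values are therefore given as a description and without a test. MDA-MB-231 is an established human line of triple-negative breast cancer. The control group received 0.1% DMSO and the treated group 5 μM NCD, both for 24 h in DMEM with serum, and both are labelled wild type. Each group held 3 libraries of bulk RNA. For NCD replicates 2 and 3 the description text carries other cell line numbers, whereas their cell line field gives MDA-MB-231. The labels do not say whether the libraries came from separate cultures, so p-values measure the spread between these libraries, which may be technical.

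Formins are actin regulators that start new, unbranched actin filaments and stay on the growing end while it elongates. Their FH2 domain holds the filament end, and the proline-rich FH1 domain ahead of it gathers profilin with its bound actin monomer. Most members are held shut by their own tail until an activator binds the front part of the protein. DIAPH1, DIAPH2 and DIAPH3 are the diaphanous formins, DAAM1 works in planar polarity signalling with Dishevelled, the FMNL and FHOD proteins shape the cell cortex and stress fibres, and INF2 can also sever filaments and acts at the endoplasmic reticulum. In breast cancer cells such filaments carry stress fibres, filopodia, cell division and invasion.

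Runs of proline codons (CCN, where N is any base), of the kind that make up FH1, are printed first. They lie at very different distances along the DNA from the transcript start. The FH1 domain itself was not mapped. The longest uninterrupted run of CCN codons in the principal coding transcript of GENCODE release 29 (GRCh38) is in capitals, with 3 codons on each side in lower case.
DIAPH1: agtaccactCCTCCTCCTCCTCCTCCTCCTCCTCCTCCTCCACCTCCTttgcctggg
DIAPH2: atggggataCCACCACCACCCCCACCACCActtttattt
DIAPH3: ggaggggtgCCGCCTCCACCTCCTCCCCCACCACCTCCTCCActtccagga
FMNL2: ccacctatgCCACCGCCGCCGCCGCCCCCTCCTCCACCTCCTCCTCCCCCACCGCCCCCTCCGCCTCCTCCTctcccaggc
FHOD1: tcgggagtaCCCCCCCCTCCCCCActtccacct
The run lies in exon 16 of DIAPH1 (chr5:141573990-141574028, minus strand), in exon 16 of DIAPH2 (chrX:96957984-96958004, plus strand) and in exon 16 of DIAPH3 (chr13:59971017-59971049, minus strand). It holds 13 CCN codons in DIAPH1, 7 in DIAPH2, 11 in DIAPH3, 21 in FMNL2 (chr2:152619538-152619600, plus strand, exon 15) and 5 in FHOD1 (chr16:67233942-67233956, minus strand, exon 13). The run lies 45.0 kb from the transcript start in DIAPH1, 192.9 kb from it in DIAPH3 and 273.3 kb from it in DIAPH2. The same distance was 284.3 kb in FMNL2 and 13.7 kb in FHOD1. Over the 10 genes the coding length varied 1.4-fold, from 3.08 kb in FMNL3 to 4.32 kb in FHOD3, with 22 to 28 exons per principal transcript. The gene span, from the first to the last annotated base, varied 50.4-fold, from 18.3 kb in FHOD1 to 920.3 kb in DIAPH2.

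Library totals ranged from 18223594 to 21629653 counts. NCD altered much of the transcriptome: 31.0% of the 15295 tested genes were called, at a Benjamini-Hochberg adjusted p below 0.05 (edgeR, quasi-likelihood) and an absolute log2 fold change above 1. Of all tested genes 2067 were called higher and 2669 lower. With library totals in place of TMM scaling the split was 2793 higher and 2181 lower, and this scaling raised the median log2 fold change of all genes by 0.20. The mesenchymal marker VIM ranged from 2490 to 3160 CPM (counts scaled to the TMM-adjusted library size). Of the other markers of the line, CD44 was at 966 to 998 CPM with DMSO and 261 to 289 CPM with NCD, MSN at 725 to 776 and 209 to 220 CPM, and AXL at 845 to 865 and 390 to 409 CPM. PTPRC and CD3E of immune cells and ESR1 and PGR of luminal cells had at most 7 counts in any library, and CDH1 at most 4. Of the endothelial markers PECAM1 had at most 21 counts and CDH5 at most 7. Of the epithelial markers EPCAM was present at 2.52 to 2.89 CPM with DMSO and 3.78 to 4.2 CPM with NCD, and ERBB2 at 35.2 to 38.4 and 58.3 to 62.6 CPM. The part of these shifts in the formin values was not tested.

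Among the formins the values separated 4 long genes with little left under NCD and 6 shorter genes that kept 51.4% of their level or more. DIAPH2, DIAPH3, FHOD3 and FMNL2 were the 4 called lower, beside 17.5% of all tested genes called lower. No member was called higher, beside 13.5% of all tested genes. The NCD libraries lay below all DMSO libraries in 8 members, beside 35.3% of tested genes, and above them in 1 member, beside 37.2%. Since the family was chosen with this contrast known, nothing is read from these counts. In bulk RNA, fewer cells carrying a transcript and less of it per cell cannot be told apart. The plot of CPM by library orders the genes by span.

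**Figure D1:**
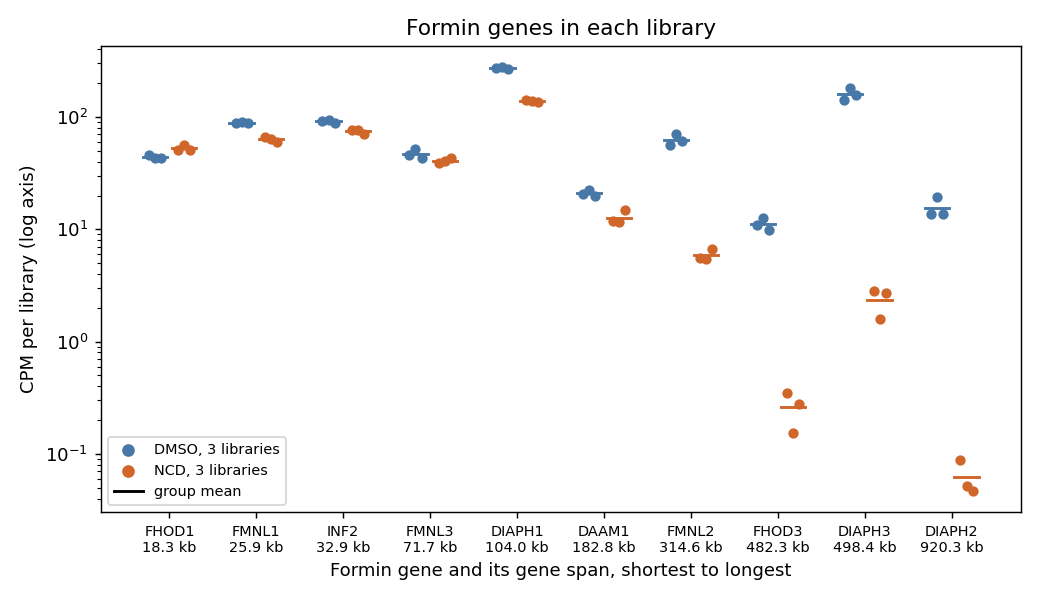
Expression of the 10 formin genes in each library, as CPM on a log axis, ordered by gene span from 18.3 kb (FHOD1) to 920.3 kb (DIAPH2). Points are libraries (3 with DMSO, 3 with NCD) and short lines are group means; the groups overlap only in FMNL3, and the 4 genes on the right are those with the deepest loss.

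DIAPH2 (ENSG00000147202; GRCh38 chrX:96684663-97604997, plus strand) is the diaphanous formin linked to ovarian function and to endosome movement. It had 227, 342 and 250 counts in the controls, compared with 2, 1 and 1.04 after NCD. This corresponds to 15.6 ± 3.27 CPM (SD, n = 3) in the controls against 0.0619 ± 0.0222 CPM (SD, n = 3) after NCD. All NCD libraries were close to 0, and DMSO replicate 2 was the highest of the control libraries. The fitted log2 fold change was -7.81 (standard error 0.31 from edgeR). At so few counts this standard error is too small to rely on: it was 0.751 with DESeq2 and 0.57 with limma-voom. Over the summed counts, 4 with NCD against 819 with DMSO, 0.403% of the scaled level was left, with an exact 95% counting interval of 0.109% to 1.04% that covers counting error only. Because so few counts remained, the size of the fitted value depends on the prior count and was -6.56 with a prior count of 2.

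DIAPH3 (ENSG00000139734; chr13:59665583-60163987, minus strand), a diaphanous formin of cell division and cell shape, was the second most abundant formin before treatment. It had 2363, 3217 and 2844 counts in the controls, compared with 64, 31 and 58 after NCD. The mean was 160 ± 20.1 CPM (SD, n = 3) in the controls against 2.37 ± 0.663 CPM (SD, n = 3) after NCD. On the log2 scale it differed by -6.06 (standard error 0.17), which left 1.5% of the level. DIAPH1 (ENSG00000131504; chr5:141515016-141619055, minus strand), a widely expressed diaphanous formin, had 4499, 4914 and 4847 counts in the controls, compared with 3279, 2709 and 2900.01 after NCD. Its groups did not overlap, at 272 ± 6.19 CPM (SD, n = 3) in the controls against 140 ± 4.07 CPM (SD, n = 3) after NCD. The log2 fold change of -0.96 (standard error 0.05) left 51.4% of the level and lay just inside the fold threshold. Without DMSO replicate 3 it was -1.007 and without NCD replicate 1 it was -1.004, both past the threshold. The fitted values left 51.4%, 0.444% and 1.5% of the level for DIAPH1, DIAPH2 and DIAPH3, whose spans are 104.0, 920.3 and 498.4 kb: the longest gene kept the smallest share.

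In the FMNL subfamily the same split ran between FMNL2 and its relatives. FMNL2 (ENSG00000157827; chr2:152335237-152649834, plus strand), a formin of filopodia and lamellipodia with a known part in cell migration, had 941, 1253.98 and 1112 counts in the controls, compared with 127, 106 and 142 after NCD. Its mean was 62.9 ± 7.31 CPM (SD, n = 3) in the controls against 5.88 ± 0.638 CPM (SD, n = 3) after NCD, for a log2 fold change of -3.42 (standard error 0.12). FMNL1 (ENSG00000184922; chr17:45221444-45247320, plus strand), best known from blood cells, had 1482.33, 1580.16 and 1619.94 counts in the controls, compared with 1533.8, 1220.2 and 1294.05 after NCD. Its scaled level was 89.2 ± 0.322 CPM (SD, n = 3) against 63.5 ± 3.36 CPM (SD, n = 3), a log2 fold change of -0.49 (standard error 0.06). The raw counts of FMNL1 overlapped between the groups and the scaled values did not. FMNL3 (ENSG00000161791; chr12:49636499-49708165, minus strand) was the only member whose groups overlapped: the DMSO libraries held 46.0, 52.1 and 42.8 CPM and the NCD libraries 38.9, 40.8 and 43.0 CPM. Its log2 fold change was -0.20 (standard error 0.09), and with library totals it was -0.003.

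The FHOD pair was split in the same way. FHOD3 (ENSG00000134775; chr18:36297714-36780055, plus strand), a formin of muscle sarcomeres, had 183.19, 225.45 and 180.06 counts in the controls, compared with 7.81, 3.05 and 6.18 after NCD. Its level was 11.2 ± 1.44 CPM (SD, n = 3) in the controls against 0.262 ± 0.0984 CPM (SD, n = 3) after NCD. On the log2 scale it differed by -5.36 (standard error 0.24 from edgeR, but 0.406 with DESeq2). The summed counts left 2.38% with an exact 95% counting interval of 1.38% to 3.85%. FHOD1 (ENSG00000135723; chr16:67229387-67247658, minus strand), which acts on stress fibres, had 760, 767.54 and 783 counts in the controls, compared with 1167, 1078 and 1095 after NCD. It was the only member with higher values under NCD in every library, at 52.6 ± 2.74 CPM (SD, n = 3) against 44.1 ± 1.53 CPM (SD, n = 3), a log2 fold change of 0.26 (standard error 0.07).

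The remaining members, both on chromosome 14, were lower by less than the threshold. DAAM1 (ENSG00000100592; chr14:59188646-59371405, plus strand) had 344, 398 and 360 counts in the controls, compared with 271, 224 and 318 after NCD. Its level was 21.0 ± 1.41 CPM (SD, n = 3) in the controls against 12.8 ± 1.8 CPM (SD, n = 3) after NCD, and its log2 fold change was -0.72 (standard error 0.12). INF2 (ENSG00000203485; chr14:104689606-104722535, plus strand) had 91.4, 93.3 and 88.9 CPM with DMSO and 76.8, 76.2 and 70.7 CPM with NCD (log2 fold change -0.29, standard error 0.06). The median log2 fold change was -0.84 over the 10 members and 0.04 over all tested genes. DMSO replicate 2 had the highest CPM of its group in 9 of the 10 members, FHOD1 being the exception. Leaving each library out in turn moved the log2 fold change of DIAPH2 between -8.149 and -7.639, that of DIAPH3 between -6.221 and -5.858, that of FHOD3 between -5.648 and -5.12 and that of FMNL2 between -3.525 and -3.329.

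Each member was set beside the 500 tested genes closest to it in span, the formins left out. Across all 14692 tested genes with a span, the log2 fold change was lower in longer genes (Spearman's rho -0.503, across genes, which share libraries and are no replicates). Over the 10 members the same rho was -0.939, given as a description of genes chosen with their changes known. The 500 neighbours of DIAPH2 spanned 294.0 to 2172.9 kb and had a median log2 fold change of -3.07 (quartiles -4.31 and -1.64). The difference of DIAPH2 from that median was -4.74 on the log2 scale, and 2 of the 500 neighbours were lower. For DIAPH3 the difference was -3.01 from a median of -3.05, with 14 of 500 lower, and for FHOD3 it was -2.31 from a median of -3.05, with 29 of 500 lower. These 3 genes were below the lower quartile of their neighbours. The neighbours of DIAPH3 spanned 282.4 to 874.9 kb and those of FHOD3 280.4 to 824.3 kb. The 3 sets thus overlap widely and are not separate comparisons. With 200 neighbours of DIAPH2, of 449.0 to 1553.1 kb, the median was -3.67. FMNL2, at -3.42 (standard error 0.12), was within the quartiles of its neighbours (-3.49 and -1.57), but nearer to the lower one than its standard error.

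Among the shorter members, DIAPH1 (neighbours' median -0.77), FHOD1 (0.44) and FMNL3 (-0.36) were all within the quartiles of genes of their size. FMNL1 differed by -0.83 from its neighbours' median of 0.34, with 65 of 500 lower. INF2 differed by -0.40 from its neighbours' median of 0.11, with 114 of 500 lower. FMNL1, at -0.49, was under its neighbours' lower quartile of -0.14. INF2, at -0.29, was under its lower quartile of -0.26 by less than its standard error of 0.06. DAAM1 was the only member above the upper quartile: it lay 0.95 above its neighbours' median of -1.67. The annotated DAAM1 gene spans 182.8 kb and its principal transcript 108.0 kb. Against the 500 genes closest to that shorter span, an alternative chosen after the data were seen, DAAM1 lay 0.14 above the median. Of all 986 tested genes of 200 kb or more, 83.2% were called lower, and of the members of that size 4 of 4 were. The next shorter members, DAAM1 at 182.8 kb and DIAPH1 at 104.0 kb, were not called, where 57.3% of the 1629 tested genes between 100 and 200 kb were called lower.

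**Figure D2:**
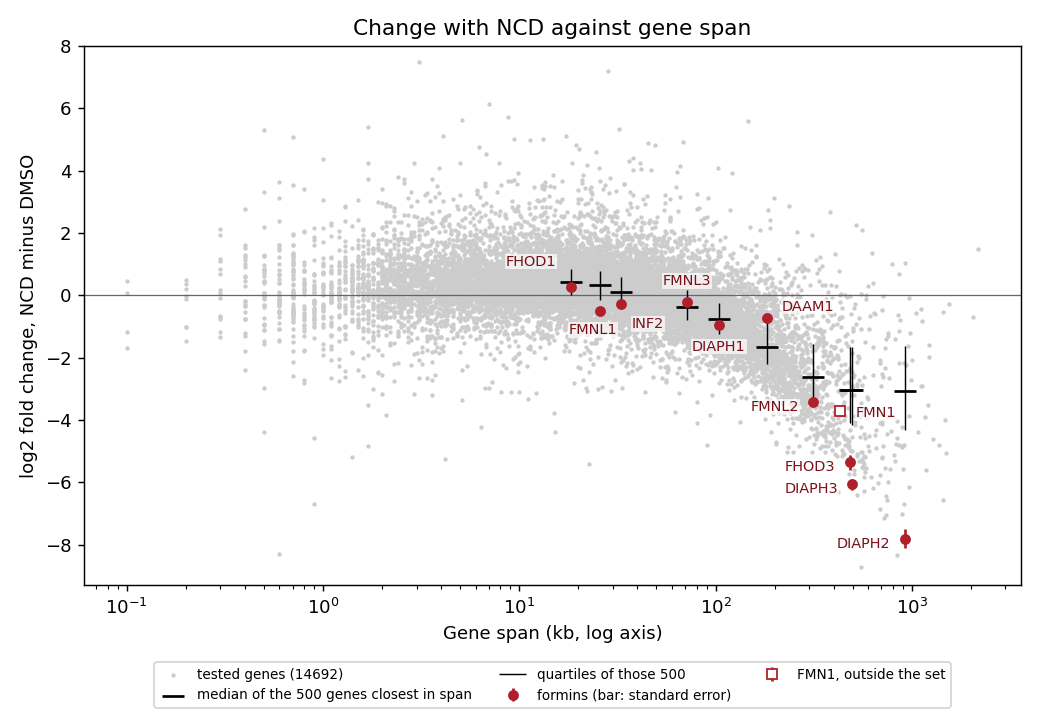
Log2 fold change (NCD minus DMSO) against gene span in kb on a log axis for 14692 tested genes (grey). Filled red circles are the 10 formins with their edgeR standard errors, and the open square is FMN1. For DIAPH2 and FHOD3, with few counts under NCD, the standard errors were larger with DESeq2. Black marks give the median and quartiles of the 500 genes closest in span. DIAPH2, DIAPH3, FHOD3, FMNL1 and, by less than its standard error, INF2 lie below these quartiles and DAAM1 lies above them.

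Intron structure was compared as well. The longest intron of the principal transcript was the last one in DIAPH2 (intron 26, 169.5 kb) and in DIAPH3 (intron 27, 107.3 kb), whereas in FMNL2 it was the first intron, 186.2 kb long. In FHOD3 it was intron 3, of 129.2 kb. In the 4 long genes the longest intron alone was thus larger than the whole span of DIAPH1. In FHOD1, FMNL1, INF2, FMNL3 and DAAM1 the first intron was the longest, from 7.75 kb in FHOD1 to 38.5 kb in FMNL3.

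Levels of different genes were compared per length, as CPM per kb of annotated exon. With DMSO the order was DIAPH1 (36.8), DIAPH3 (21.5), FMNL1 (11.8), FMNL2 (9.64), INF2 (9.61), FHOD1 (8.15), FMNL3 (3.5), DAAM1 (1.96), DIAPH2 (1.63) and FHOD3 (1.41). FMNL2 and INF2 overlapped in their ranges over libraries, as did DAAM1 with DIAPH2 and DIAPH2 with FHOD3, and the other neighbours in the order did not. With NCD the order was DIAPH1 (18.9), FHOD1 (9.73), FMNL1 (8.38), INF2 (7.86), FMNL3 (3.05), DAAM1 (1.19), FMNL2 (0.903), DIAPH3 (0.318), FHOD3 (0.0328) and DIAPH2 (0.00648). There only FMNL1 and INF2 overlapped. DIAPH3 thus moved from rank 2 to rank 8, and FHOD1 from rank 6 to rank 2. The rank of FHOD1 with NCD depended on the length used. With principal transcript lengths FHOD1 held 17.4% of the summed level of the 10 genes with NCD. That was less than DIAPH1 (31.8%), INF2 (21.1%) and FMNL1 (20.4%).

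Summed over the 10 genes, the formin pool was 106 ± 5.46 CPM per kb (SD, n = 3) with DMSO and 50.4 ± 1.04 CPM per kb (SD, n = 3) with NCD, so 47.5% was left, or 54.4% with library totals. DIAPH3 accounted for 38.1% of the drop, DIAPH1 for 32.2% and FMNL2 for 15.7%, while DIAPH2, with its far larger fold change, accounted for 2.92%. DIAPH1 was the leading formin in both groups, with 34.8 ± 1.13% of the pool (SD, n = 3) under DMSO and 37.5 ± 0.42% (SD, n = 3) under NCD. The share of FHOD1 was 7.7 ± 0.548% (SD, n = 3) and 19.3 ± 0.911% (SD, n = 3), and that of INF2 was 9.08 ± 0.315% (SD, n = 3) and 15.6 ± 0.385% (SD, n = 3). Together the 4 members of 200 kb or more made up 32.2 ± 2.42% of the pool (SD, n = 3) with DMSO and 2.51 ± 0.379% (SD, n = 3) with NCD. The stacked plot of the pool shows this shift in every library.

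**Figure D3:**
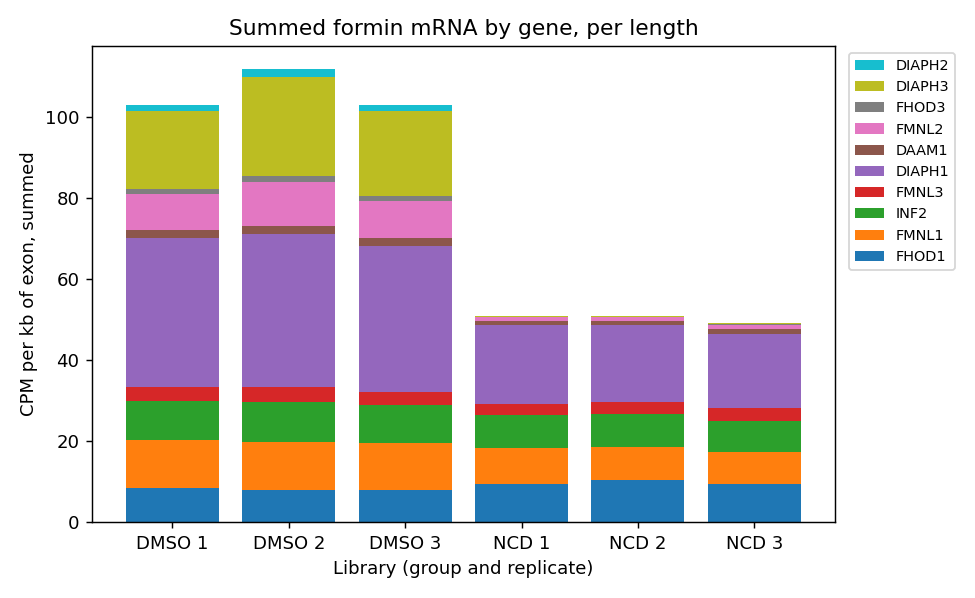
Summed level of the 10 formin genes in each library, in CPM per kb of annotated exon, stacked by gene with the shortest gene at the bottom. The DMSO libraries reach 103.0 to 112.0 and the NCD libraries 49.2 to 51.1, and the bands of DIAPH3 and FMNL2 nearly vanish with NCD.

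Reads of neighbouring genes could add to these counts, since the strand setting of the counting is not given in the sources used here. The overlapping genes of DIAPH1, DIAPH2, DIAPH3 and FMNL2 had at most 2 counts in any library, and the single gene that overlaps INF2 had 0. FHOD3 overlaps TPGS2 on the opposite strand over 608 exonic bases and TPGS2 had 1536 to 1928 counts per library, while FHOD3 had at most 7.81 in an NCD library. FHOD1 overlaps SLC9A5 on the opposite strand over 571 exonic bases. SLC9A5 was called higher (log2 fold change 1.25, standard error 0.18, adjusted p = 0.000234 from edgeR) with 42 to 199 counts per library, fewer than the 760 to 1167 counts of FHOD1. FMNL1 overlaps the antisense gene AC008105.3 (637 exonic bases, at most 99.83 counts), and FMNL3 overlaps PRPF40B (2643 exonic bases, at most 89.35 counts) and TMBIM6 (no shared exonic base). The values of FHOD1, FMNL1, FMNL3 and FHOD3 are uncertain to that extent.

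Promoter sequence was read from RefSeq (GRCh38.p14) for all 10 members, as the 250 bases before the annotated start. It is shown for the most abundant formin, DIAPH1, and for DIAPH3 and FMNL2, both called lower. Both were among the 4 highest formins per kb of annotated exon before treatment. With principal transcript lengths FMNL2 (7.26% of the pool with DMSO) was below INF2 (12.6%). Searched on both strands were the GC box, spelled GGGCGG, the CCAAT box with the letters of its name, the TATA box, spelled TATAAA, and the E-box, spelled CACGTG. None of these contains another, and matches are in capitals. Only bases ahead of both the RefSeq and the GENCODE start are printed, 5′ to 3′ on the gene's strand.
DIAPH1: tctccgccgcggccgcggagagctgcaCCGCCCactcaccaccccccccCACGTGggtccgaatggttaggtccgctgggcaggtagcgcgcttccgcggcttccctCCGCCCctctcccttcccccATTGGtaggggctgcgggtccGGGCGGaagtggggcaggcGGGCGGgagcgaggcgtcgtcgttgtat
DIAPH3: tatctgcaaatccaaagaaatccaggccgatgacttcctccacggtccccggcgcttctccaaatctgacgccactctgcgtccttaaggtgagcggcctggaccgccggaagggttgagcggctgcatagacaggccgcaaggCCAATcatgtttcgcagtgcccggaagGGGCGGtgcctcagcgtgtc
FMNL2: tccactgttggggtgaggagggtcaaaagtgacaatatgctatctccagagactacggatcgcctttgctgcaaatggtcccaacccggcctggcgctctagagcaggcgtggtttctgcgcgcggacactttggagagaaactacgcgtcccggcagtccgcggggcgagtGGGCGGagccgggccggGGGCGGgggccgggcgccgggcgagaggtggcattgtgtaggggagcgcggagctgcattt
These stretches lie at chr5:141619056-141619250 (minus strand), chr13:60163988-60164178 (minus strand) and chr2:152334924-152335173 (plus strand). Motifs were counted over the full 250 bases, some of which lie past the GENCODE start. In FMNL1 and FMNL3 no base was ahead of both starts, in DIAPH2 71 were and in FHOD1 73. The GC boxes and E-box of DIAPH2 and the CCAAT box of FHOD1 lie past the GENCODE start. At the start RefSeq lists first, every member had at least 1 GC box, from 1 in DIAPH3 to 10 in INF2. RefSeq also lists other starts: those of DIAPH3 and DAAM1 had 0 GC boxes, and those of INF2 had 0, 1 and 0. Of all 35116 RefSeq promoters 42.6% had at least 1 GC box. A TATA box was found in none of the 10, against 10.7% of all promoters. A CCAAT box was found in DIAPH1, DIAPH3, DAAM1 and FHOD1, against 32.0% of all, and an E-box in DIAPH1, DIAPH2 and INF2, against 6.34%. No CArG box, the element bound by SRF, was found in these windows, against 1.16% of all promoters. At the starts listed first the GC content ran from 62.4% in DIAPH2 and DIAPH3 to 81.6% in FHOD3, against a median of 58.0% over all promoters. At the other starts of DIAPH3 and DAAM1 it was 46.8% and 47.2%, and at those of INF2 it was 61.2% to 68.8%. FHOD3, called lower, and FMNL3, whose groups overlapped, were the 2 richest in GC, at 81.6% and 79.2%.

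The family has 4 further human members, which the rule did not include. FMN1, a formin of cell junctions and limb development that spans 429.2 kb on chromosome 15, had 322.77, 439 and 349 counts in the controls, compared with 34, 31.12 and 37 after NCD. It fell by 3.72 on the log2 scale (standard error 0.16, adjusted p = 1.01e-07 from edgeR), with no overlap between the groups, against a median of -2.99 for the 500 genes closest to it in span. DAAM2 did not pass the filter, with 2.04 to 13.5 counts in the DMSO libraries and 8.1 to 14.16 in the NCD libraries. FMN2 and GRID2IP had 0 counts in every library, which allows up to 3 counts per library, for counting error only. The genes whose log2 CPM over the 6 libraries was closest to that of DIAPH2 were CADPS2 (root mean square difference 0.548), CDK14 (0.565) and SLC35F3 (0.69), with spans of 568.3, 744.2 and 419.6 kb.

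The genes that act with formins were taken from lists of the actin machinery and its regulators. With the 4 other human formins these made 168 genes, of which 160 could be tested, FMN1 among them. Of the 160 tested genes 67 were called lower (41.9%, beside 17.5% of all tested genes) and 11 higher (6.88%, beside 13.5%), with a median log2 fold change of -0.65. The listed genes called lower had a median span of 156.6 kb, those called higher 15.2 kb and those not called 29.5 kb. Among listed genes of 200 kb or more 85.2% of 27 were called lower, close to the 83.2% of all genes of that size. Between 100 and 200 kb the share was 77.8% of 36, beside 57.3% of all genes of that size. Between 50 and 100 kb it was 30.8% of 26, beside 15.3%. Under 50 kb the share was 11.3% of 71, beside 4.92% of all genes of that size. The adjusted p-values that follow come from edgeR (quasi-likelihood) and were adjusted by Benjamini-Hochberg over all tested genes.

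Upstream of the formins, the list of exchange factors and GTPase-activating proteins had no gene called higher: 20 of 30 tested were called lower, with a median log2 fold change of -1.78 and a median span of 210.9 kb. The largest falls were in ARHGAP26 (-4.79, standard error 0.16, adjusted p = 3.03e-08), in DOCK1, an exchange factor (-4.56, standard error 0.13, adjusted p = 2.24e-08), and in TRIO, an exchange factor too (-4.42, standard error 0.10, adjusted p = 1.16e-08).

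Downstream, the building blocks of filaments were lower at the level of the main actin genes. ACTB, which encodes beta-actin, fell from 3590 to 1690 CPM, changing by -1.08 on the log2 scale (standard error 0.08, adjusted p = 2.51e-06), and with library totals its change was -0.886, inside the fold threshold. ACTG1, gamma-actin, fell from 2070 to 880 CPM (log2 fold change -1.23, standard error 0.08, adjusted p = 8.92e-07). PFN1, the profilin that feeds formins with actin, changed by -0.50 on the log2 scale (standard error 0.08, adjusted p = 0.000478), inside the threshold. In this list 6 of 16 genes were called lower and 0 higher, and CAP2 (-2.26), CORO1C (-2.03) and WDR1 (-1.24), all involved in filament turnover, had the largest falls. ACTB, ACTG1 and WDR1 span 36.6, 13.9 and 42.6 kb, and the genes closest to them in span had median log2 fold changes of 0.13, 0.46 and 0.06.

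The Arp2/3 complex, which makes branched filaments, and its activators had 7 of 23 genes called lower and 1 higher. ABI2 (-1.75), ACTR3 (-1.63) and NCKAP1 (-1.38) fell most, and WHAMM, an Arp2/3 activator on membranes, rose by 1.06 (standard error 0.07, adjusted p = 1.34e-06). Without DMSO replicate 3 the rise of WHAMM was 0.995, below the threshold. Of the other nucleators, elongators and capping proteins 6 of 12 were called lower and 0 higher, among them CAPZB (-2.14), a subunit of the capping protein that competes with formins for filament ends, SPIRE1 (-2.02), a nucleator that works with FMN-type formins, and COBLL1 (-1.94). Of the formin partners 6 of 16 were called lower and 3 higher. SRGAP1 (-3.22), SRGAP2 (-2.63) and the crosslinker MACF1 (-1.67) fell, whereas DVL2, a Dishevelled protein, rose by 1.29 (standard error 0.07, adjusted p = 6.36e-07) and BAIAP2, a membrane-bending partner of diaphanous formins, by 1.19 (standard error 0.11, adjusted p = 1.19e-05).

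Formin activity is known to deplete actin monomer and so to free the coactivators MRTFA and MRTFB to act with SRF. Of 20 tested genes of this axis 7 were called lower and 1 higher. MRTFB fell by 3.11 (standard error 0.22, adjusted p = 2.35e-06) and MRTFA by 2.37 (standard error 0.21, adjusted p = 8.81e-06), genes of 195.5 and 226.4 kb, while SRF, of 10.2 kb, changed by 0.44 (standard error 0.07, adjusted p = 0.000487), inside the threshold. VCL, which encodes vinculin, fell by 2.13 and ACTA2, smooth muscle actin, rose by 1.57. In the ROCK, myosin II and LIM kinase list 7 of 14 were called lower and 1 higher, with ROCK2 (-2.75), ROCK1 (-2.19) and the myosin phosphatase subunit PPP1R12A (-2.17) lowest and the cofilin phosphatase SSH3 (1.25) higher. In the cytokinesis list 6 of 12 were called lower and 0 higher, led by SEPTIN9 (-2.84), CIT (-2.17) and SEPTIN7 (-1.52), whereas AURKB, PRC1, KIF23 and RACGAP1 stayed inside the fold threshold, with log2 fold changes from -0.28 to -0.07 (these 4 were named after their values were seen).

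Among the listed genes of 200 kb or more and those under 50 kb, some were called otherwise than most genes of their size. Genes of other spans also differed from their neighbours' median, such as CORO1C (-2.03 against -0.51) and BAIAP2 (1.19 against -0.48). All genes named here were picked for this comparison after their values were seen. Of the 27 listed genes of 200 kb or more, SRGAP3 was called higher (0.19 CPM with DMSO, 1.23 CPM with NCD, adjusted p = 0.00703 from edgeR). SRGAP3 was near the floor, with 1, 9 and 0 counts in the DMSO libraries and a standard error of 0.68. DLC1 (-0.92), ARHGEF3 (-0.65) and FILIP1L (0.83) were not called. Of the 71 listed genes under 50 kb, 8 were called lower: ACTB, ACTG1, WDR1, CTTN, TAGLN, TPM4, CCN1 and CCN2, with log2 fold changes from -1.67 for CCN2 to -1.08. All 8 encode actin, actin-binding proteins or secreted proteins listed as SRF targets. These are kinds of gene that the lists were made to hold, so nothing is read from it. The plot of the lists gives the tested genes of 8 of them.

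**Figure D4:**
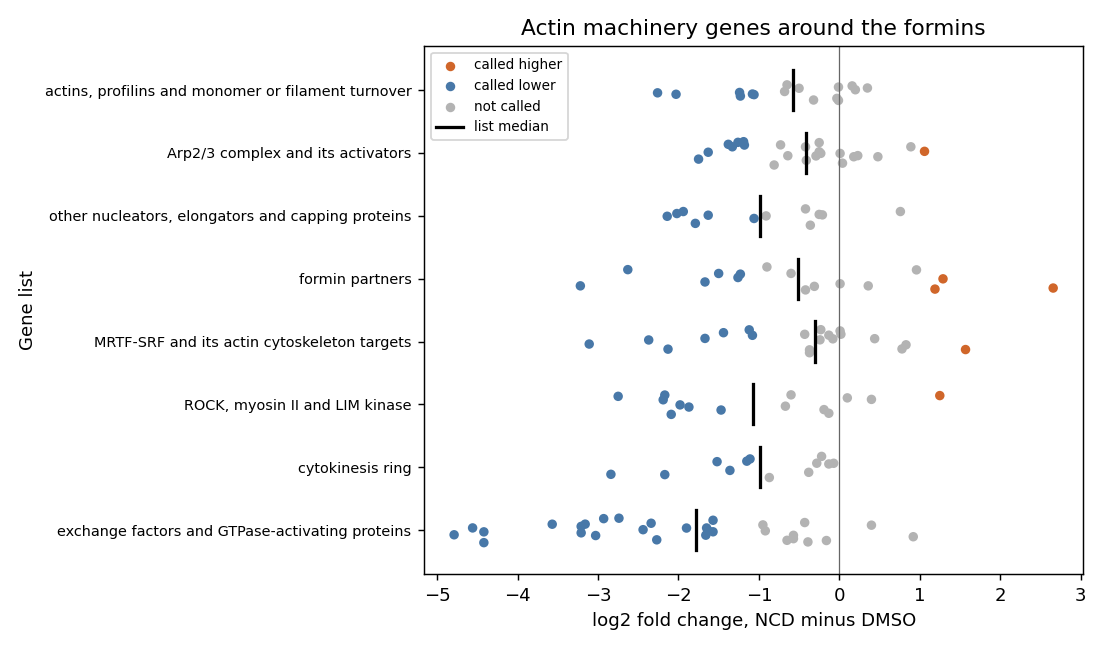
Log2 fold change (NCD minus DMSO) of each tested gene in 8 lists of the actin machinery and its regulators. Orange points are genes called higher, blue points genes called lower, grey points not called, and the black bar is the list median, lowest for the exchange factors and GTPase-activating proteins at -1.78 and highest for the MRTF-SRF list at -0.31.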

How the data were processed

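Bulk RNA from MDA-MB-231 cells was sequenced in 3 DMSO and 3 NCD libraries. The authors aligned reads to the human genome with HISAT2 (GRCh38 in the submitters' processing notes) and deposited expected counts per Ensembl gene from RSEM, not normalized. Tool versions, annotation release and strand setting are not given in the sources used here. In each library 25 lines of stray text with no gene were skipped. Symbols were found for 62720 of 63241 identifiers, and GENCODE release 29 (GRCh38) gave spans and exon lengths for 58228.

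Expected counts were rounded, filtered with filterByExpr, scaled by TMM and tested with glmQLFit and glmQLFTest in edgeR 4.0.16 (R 4.3.3). Standard errors were taken as |log2 fold change| over the root of the F statistic. Alternatives were DESeq2 1.42.0, limma-voom (limma 3.58.1), other scalings and filters, a prior count of 2, no fold threshold, a replicate block and leaving out each library. At these totals genes with a few counts per library are not measurable. The libraries of a group differed by more than sampling noise (chi-square per degree of freedom from 2.09 to 16.9 over pairs of libraries). Pairs with DMSO replicate 2 or NCD replicate 3 had the larger values. The fit was checked on simulated counts.

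The members and lists were chosen with earlier results of these data known. Genes named by rule are the 10 members, the other human formins, up to 3 called genes per list and direction with the largest change and a mean of at least 5 CPM, PFN1, ACTB, ACTG1, SRF and MRTFA, overlapping genes with 10 or more counts, and the 3 genes closest to DIAPH2. The report marks the genes named after their values were seen. The genes of 1 list are counted in the totals over all lists and are not reported here.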

Additional observations from a re-analysis of the deposited data

How the results depend on the processing

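The formins and listed genes that the rule names, 44 in all, kept their direction under each alternative that could be fitted, and 41 also kept their side of the threshold throughout. The alternatives were not run for single genes named after their values were seen. The exceptions were DIAPH1, ACTB and WHAMM, whose changes lie close to a log2 fold change of 1. Where every library had to hold 10 or more counts, 2 members were called lower, because that filter removes DIAPH2 and FHOD3. Without a fold threshold, by construction, 10602 genes were called, 1 member higher and 8 lower, and 27 listed genes higher and 110 lower. With library totals 16 listed genes were called higher and 57 lower, against 11 and 67. Without each library in turn the count of called genes ranged from 4653 to 5049, that of members called higher stayed at 0, that of members called lower ranged from 4 to 5, and those of listed genes ranged from 11 to 14 higher and from 67 to 69 lower.

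The distance from genes of like span depended on how these were taken. With 200 neighbours it was -4.14 for DIAPH2, -0.43 for FMNL2 and 0.26 for FMNL3, and with protein-coding neighbours it was -0.65 for FMNL2. With neighbours of at least 5 CPM under DMSO, chosen after the data were seen, it was -0.12 for DIAPH1, -0.69 for FMNL1, -0.61 for FMNL2 and -0.09 for FHOD1. With the span of the principal transcript, also chosen afterwards, it was 0.14 for DAAM1 and -0.47 for INF2. The formin pool left with NCD was 48.9% with principal transcript lengths and 54.4% with library totals. The cause of these shifts was not tested.

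The deviations of same-numbered libraries from their group means had correlations of 0.216, -0.185 and 0.0226, which differ in sign. Deviations within a group are tied to each other through its mean. These correlations therefore cannot decide whether same-numbered libraries shared a culture or a batch. Adding a replicate block left 4723 genes, 4 members (all lower) and 78 listed genes (11 higher, 67 lower) called.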
